A study of Sus scrofa with 6 samples.

Results

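The genes described here bring fatty acids into the cell and carry them inside it. They are 10 genes listed by symbol, namely the binding proteins FABP3, FABP4, FABP5 and DBI, the membrane genes CD36, SLC27A1, SLC27A4 and SLC27A6, and the lipase LPL with its partner GPIHBP1, out of 31908 annotated genes in the deposited table. All 10 were found by symbol and all 10 passed the minimum for testing. The tissue was longissimus dorsi (LD), a back muscle, taken from 6 castrated male Laiwu pigs. The S-H group had extremely high intramuscular fat (IMF) content and held LW63, LW70 and LW119, and the S-L group had extremely low IMF content and held LW82, LW88 and LW90. Each pig gave 1 library of total RNA depleted of ribosomal RNA. No treatment or genotype is given for either group, the age of the pigs is not given in the sources used here, and the pigs were chosen by their IMF content, so that the fat itself differs between the groups by selection.

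Circulating triglyceride is split at the capillary wall by lipoprotein lipase, the product of LPL, which GPIHBP1 carries across the endothelial cell and holds at its surface. The freed fatty acids enter muscle fibres and adipocytes with the help of CD36 and of the fatty acid transport proteins encoded by the SLC27A genes, which also join fatty acids to coenzyme A. Inside the cell they are bound by small cytosolic proteins. FABP3 is the heart and muscle form, FABP4 the form of adipocytes, also made by endothelial cells and macrophages, FABP5 a form found in skin, fat and many other tissues, and DBI binds the acyl-CoA esters.

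Levels are given in FPKM, a fragment count scaled to transcript length and to the size of the library, summed over the transcripts of a gene, so that levels of different genes can be set side by side per length. The S-H and S-L pigs were compared by limma, on log2(FPKM + 0.1), over 12740 protein-coding genes with a mean of at least 0.1 FPKM, and a gene passed at an unadjusted p below 0.01 if its log2 fold change was also 1 or more in size. With this pseudocount the fold changes of genes at low FPKM come out too small. These thresholds were passed by 173 genes, or 1.36% of those tested, with 149 higher in S-H (1.17%) and 24 lower (0.188%). With median-ratio size factors, which set the typical gene equal between libraries, 82 genes were higher and 55 lower. Over the tested genes the log2 fold change had a median of 0.21 in FPKM and 0.0060 after size factors, so a gene with a log2 fold change near 0.21 moved no more than the typical gene. After Benjamini-Hochberg adjustment of the limma p values, 0 genes were below 0.05, while 1039 genes (8.16%) had an unadjusted p below 0.05. The deposited table gives no read counts. The paper reports raw and clean reads for each library, but these were not used here. The muscle markers were present in every library, with MYH7, the slow myosin heavy chain, at 190 to 413 FPKM and MYLPF, a fast myosin light chain, at 6701 to 14386 FPKM.

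Of the 10 genes, 3 passed the thresholds, namely FABP4, DBI and SLC27A6, and all 3 were higher in S-H, where 1.17% of all tested genes were. The same 3 genes were the ones without overlap between the groups, which held in this direction for 13.1% of all tested genes. The other 7 overlapped between the groups and had an unadjusted p above 0.05 in limma. None of the 10 had an adjusted p below 0.05. All 10 had a positive log2 fold change on the FPKM scale, as did 74.1% of all tested genes, but after size factors only 5 did. The median of the 10 was 0.25, beside 0.21 for all tested genes.

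**Figure D1:**
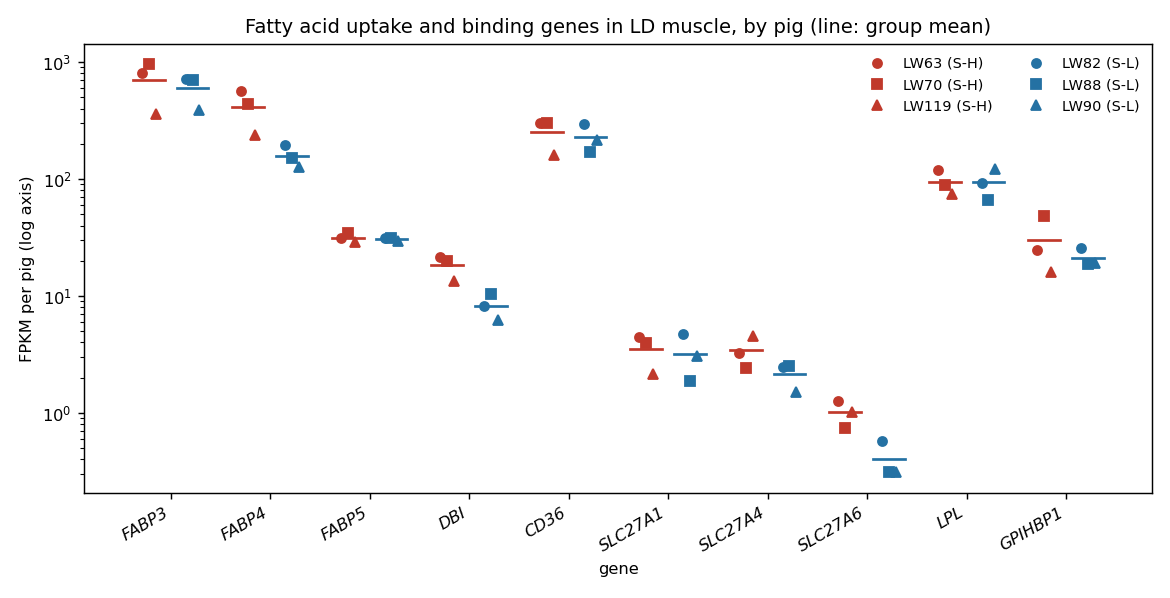
Level of each of the 10 genes in each pig, in FPKM on a log axis, with S-H pigs in red, S-L pigs in blue and a line at each group mean. FABP4, DBI and SLC27A6 have all 3 S-H pigs above all 3 S-L pigs, FABP5 lies between 28.7 and 34.7 FPKM in all 6 pigs, and the remaining genes overlap.

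FABP3, on chromosome 6 (87942790 to 87951610 of the pig assembly Sscrofa11.1, as are all positions given), was the most abundant of the 10 genes, with a mean over the pigs above that of 99.6% of the tested genes. It had 810 FPKM in LW63, 955 FPKM in LW70 and 359 FPKM in LW119, against 721 FPKM in LW82, 704 FPKM in LW88 and 391 FPKM in LW90. Each group thus held 1 low pig, LW119 in S-H and LW90 in S-L, and the groups overlapped. The group levels were 708 ± 311 FPKM in S-H and 605 ± 186 FPKM in S-L (SD, n = 3 each). The log2 fold change of FABP3 was 0.16 with a 95% interval from -0.76 to 1.09 (limma, unadjusted p = 0.706, adjusted p = 0.919).

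FABP4, on chromosome 4 (55096404 to 55101897), was the second most abundant. It had 564 FPKM in LW63, 438 FPKM in LW70 and 239 FPKM in LW119, against 196 FPKM in LW82, 150 FPKM in LW88 and 127 FPKM in LW90. The lowest S-H pig, LW119, was nearest to the highest S-L pig, LW82, and LW63 was 4.45 times as high as LW90. FABP4 rose from 158 ± 35.5 FPKM in S-L to 413 ± 164 FPKM in S-H (SD, n = 3 each), a log2 fold change of 1.33 (standard error 0.35, 95% interval 0.55 to 2.10, limma, unadjusted p = 0.00338, adjusted p = 0.540). This was 1.11 above the median of all tested genes. The thresholds were passed in 2 of the 6 fits that left out 1 pig, with log2 fold changes from 1.06 without LW63 to 1.68 without LW119, and FABP4 did not pass after size factors (log2 fold change 1.11, limma, unadjusted p = 0.0167).

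FABP5 lies on the same chromosome (55275202 to 55282908), 173304 bases beyond FABP4. It was nearly level over the pigs, at 31.4 FPKM in LW63, 34.7 FPKM in LW70 and 28.7 FPKM in LW119, against 31.0 FPKM in LW82, 31.2 FPKM in LW88 and 29.7 FPKM in LW90. The highest pig was 1.21 times the lowest, and of the 9894 tested genes with a mean of at least 1 FPKM, 99.7% varied more over the 6 pigs by the SD of log2(FPKM + 0.1), which was 0.092 for FABP5 and 0.85 for FABP4. This evenness depended on the scaling, since after size factors FABP5 ran from 25.0 in LW119 to 36.7 in LW90. The log2 fold change of FABP5 was 0.04 with a 95% interval from -0.44 to 0.52 (limma, unadjusted p = 0.857, adjusted p = 0.962).

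The carriers were then set against each other within each library, where the scaling between libraries has no effect. FABP4 reached 0.697 times the level of FABP3 in LW63, 0.458 times in LW70 and 0.666 times in LW119, but 0.273 times in LW82, 0.213 times in LW88 and 0.324 times in LW90. The groups did not overlap, and LW119, the S-H pig with the least FABP4, had a ratio close to that of LW63 because its FABP3 was low as well. On the log2 scale the ratio was -0.74 ± 0.33 in S-H and -1.91 ± 0.30 in S-L (SD, n = 3 each), a difference of 1.17 (two-sided exact permutation, p = 0.10, which is the lowest possible with 3 pigs a group, and 0.30 after adjustment over the 3 ratios tested). The difference lay between 1.01 and 1.36 when each pig was left out in turn.

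The ratio of FABP5 to FABP3 showed no such separation. It was 0.0388 in LW63, 0.0363 in LW70 and 0.0800 in LW119, against 0.0431 in LW82, 0.0444 in LW88 and 0.0758 in LW90, and the highest value of each group belonged to the pig with the least FABP3. The log2 ratio was -4.37 ± 0.63 in S-H and -4.25 ± 0.46 in S-L (SD, n = 3 each), a difference of -0.12 (exact two-sided permutation test, p = 0.60). Of the summed FPKM of the 3 FABP genes, FABP4 made up 36.3% ± 4.99 in S-H and 20.3% ± 3.12 in S-L, and FABP3 made up 60.6% ± 5.46 and 75.7% ± 4.05 (SD, n = 3 each). The sum itself overlapped between the groups, from 627 to 1427 FPKM in S-H and from 548 to 948 FPKM in S-L.

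**Figure D2:**
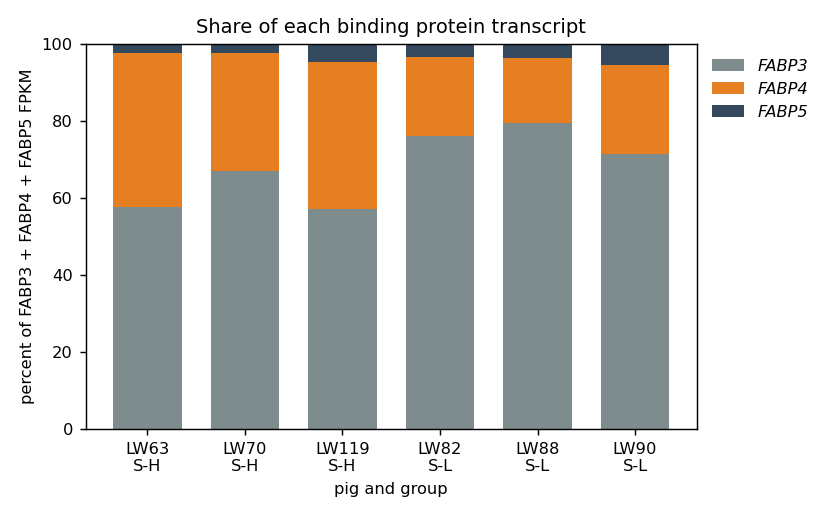
Percent of the summed FPKM of FABP3, FABP4 and FABP5 that each gene made up, by pig, with the S-H pigs on the left and the S-L pigs on the right. FABP4 takes 30.7% to 40.1% in the S-H pigs and 16.9% to 23.1% in the S-L pigs, and FABP5 stays between 2.23% and 5.42%.

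DBI, the acyl-CoA binding protein, was the other binding protein gene that rose. It had 21.7 FPKM in LW63, 20.0 FPKM in LW70 and 13.4 FPKM in LW119, against 8.18 FPKM in LW82, 10.3 FPKM in LW88 and 6.17 FPKM in LW90. All S-H pigs were above all S-L pigs, with LW119 nearest to the S-L group. The group levels were 18.4 ± 4.39 FPKM in S-H and 8.22 ± 2.07 FPKM in S-L (SD, n = 3 each), a log2 fold change of 1.15 (standard error 0.29, 95% interval 0.51 to 1.79, limma, unadjusted p = 0.00248, adjusted p = 0.535), which was 0.94 above the median of all tested genes. DBI passed in 4 of the 6 fits without 1 pig, the exceptions being those without LW63 and without LW90. It did not pass after size factors (log2 fold change 0.93, limma, unadjusted p = 0.00843) or with carcass weight as a covariate (log2 fold change 1.06, limma, unadjusted p = 0.0309). Nearly all of its signal, 99.98% or more in each pig, came from TCONS_00102328, a transcript assembled from the reads (chromosome 15, 24895439 to 24906920), and the annotated transcript DBI-201 stood at 0.0031 FPKM or less. DBI-201 spans 24896450 to 24906372, which covers most of the assembled transcript. RefSeq places DBI at 24895575 to 24900710 of the same assembly, so the assembled transcript spans more than the RefSeq gene. Without assembled transcripts DBI was below the minimum for testing.

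FABP4 is a gene of adipocytes, and the 6 pigs differ in muscle fat. In bulk tissue, more adipocytes and more RNA per adipocyte cannot be told apart. Of 14 adipocyte markers, 12 were tested, 6 rose and none fell, with a median log2 fold change of 1.72 beside 0.21 for all tested genes. Those that rose were ADIPOQ and LEP, which encode the adipocyte hormones adiponectin and leptin, PLIN1 and CIDEC, which encode proteins of the lipid droplet, KLB, a co-receptor for FGF21, and LGALS12, an adipocyte galectin. CIDEA and AQP7 could not be matched by symbol. No matched marker was at 0 in all pigs, but RETN was above 0 only in LW119, at 0.807 FPKM. In 9 of the 12 tested markers all S-H pigs were above all S-L pigs, as in 13.1% of all tested genes. RETN, GPD1 and PLIN4 overlapped between the groups, and GPD1 and PLIN4 were, with ADIPOQ, the most abundant of the list. The summed level of the list was 332 to 979 FPKM in S-H and 228 to 285 FPKM in S-L. The share of this difference in the result for FABP4 and DBI was not tested.

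FABP4 was also set against these markers within each pig, as its log2 value minus the mean log2 value of the 12 tested markers. RETN entered this mean through the pseudocount alone in every pig but LW119. The difference was 4.76 in LW63, 5.38 in LW70 and 4.49 in LW119, against 5.26 in LW82, 5.10 in LW88 and 5.37 in LW90. The groups overlapped, since LW70 had the highest value of all and LW63 and LW119 the lowest. The mean was 4.88 ± 0.46 in S-H and 5.24 ± 0.14 in S-L (SD, n = 3 each), lower by 0.36 in S-H (exact two-sided permutation test, p = 0.40). A p of this size does not show that the ratio was the same in both groups. The size of this difference between the groups was not stable. It was -0.62 without LW70 and -0.17 without LW119, -0.66 with ADIPOQ, PLIN1 and CIDEC as the only markers and -0.57 with a pseudocount of 0.01, and with a pseudocount of 1 it was 0.066 in the other direction.

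**Figure D3:**
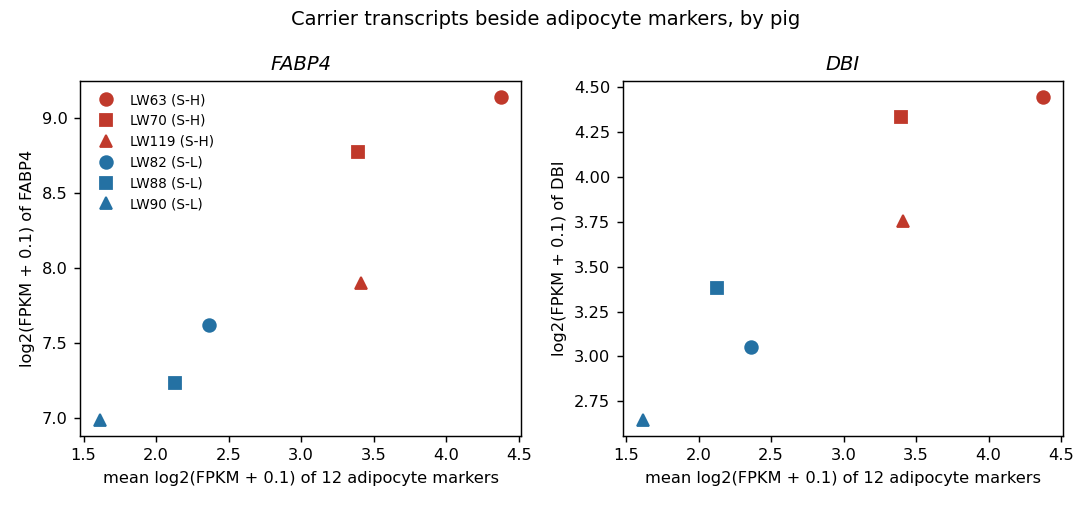
Level of FABP4 (left) and DBI (right) as log2(FPKM + 0.1), against the mean log2(FPKM + 0.1) of 12 adipocyte markers, with 1 point for each pig, red for S-H and blue for S-L. The S-H pigs lie higher on both axes in both panels, with marker means from 3.39 to 4.38 against 1.62 to 2.36 in the S-L pigs.

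CD36 (chromosome 9, 99605181 to 99782105), the main fatty acid translocase of the muscle fibre membrane, was the most abundant of the uptake genes. It had 299 FPKM in LW63, 300.1 FPKM in LW70 and 161 FPKM in LW119, against 296 FPKM in LW82, 171 FPKM in LW88 and 216 FPKM in LW90. The highest pigs of both groups were alike, the lowest pig was again LW119, and the groups overlapped. LW119 also had the smallest FPKM sum over all transcripts, 638536 against 776457 to 846661 in the other pigs. After size factors CD36 was lowest in LW119, at 140 against 176 in LW88. The size factor of LW119 was the largest, 1.15, so this scaling lowered its values further. Scaling to equal FPKM sums would instead raise them relative to every other pig, so the place of LW119 depends on the scaling chosen. How far the low levels of LW119 depend on the scaling was not tested. The log2 fold change of CD36 was 0.13 with a 95% interval from -0.60 to 0.87 (limma, unadjusted p = 0.692, adjusted p = 0.915).

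The 3 fatty acid transport protein genes were far less abundant than CD36. SLC27A1 (chromosome 2, 60203374 to 60235652), the form of muscle and fat, had 4.42 FPKM in LW63, 3.92 FPKM in LW70 and 2.15 FPKM in LW119, against 4.68 FPKM in LW82, 1.86 FPKM in LW88 and 3.04 FPKM in LW90. Its groups overlapped over nearly their whole range (log2 fold change 0.16, 95% interval -0.71 to 1.03, limma, unadjusted p = 0.693). SLC27A4 (chromosome 1, 268756680 to 268788791), known for its part in intestine and skin, had 3.27 FPKM in LW63, 2.43 FPKM in LW70 and 4.58 FPKM in LW119, against 2.46 FPKM in LW82, 2.52 FPKM in LW88 and 1.51 FPKM in LW90. It was the only one of the 10 genes with its highest level in LW119, and LW70 lay inside the S-L range (log2 fold change 0.63, 95% interval -0.10 to 1.36, limma, unadjusted p = 0.0847).

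SLC27A6 (chromosome 2, 131750449 to 131825887), the form described in heart, had the lowest level of the 10 genes and was the only transporter gene that rose. It had 1.26 FPKM in LW63, 0.744 FPKM in LW70 and 1.02 FPKM in LW119, against 0.574 FPKM in LW82, 0.313 FPKM in LW88 and 0.311 FPKM in LW90. All S-H pigs were above all S-L pigs, at 1.01 ± 0.26 FPKM against 0.399 ± 0.151 FPKM (SD, n = 3 each). The log2 fold change was 1.16 (standard error 0.36, 95% interval 0.36 to 1.97, limma, unadjusted p = 0.00908, adjusted p = 0.580), just inside the threshold. It passed in 2 of the 6 fits without 1 pig, and did not pass after size factors (log2 fold change 0.98, limma, unadjusted p = 0.0103) or with a pseudocount of 1 (log2 fold change 0.52).

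LPL (chromosome 14, 4104772 to 4135814), the lipase, had close group means. It had 118 FPKM in LW63, 88.0 FPKM in LW70 and 75.0 FPKM in LW119, against 91.8 FPKM in LW82, 66.6 FPKM in LW88 and 122 FPKM in LW90. The highest pig was LW90, the S-L pig with the least FABP4, and the groups overlapped fully. Means were 93.8 ± 22.2 FPKM in S-H and 93.3 ± 27.5 FPKM in S-L (SD, n = 3 each), with a log2 fold change of 0.02 and a 95% interval from -0.63 to 0.68 (limma, unadjusted p = 0.938, adjusted p = 0.986).

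GPIHBP1 (chromosome 4, 1254565 to 1256577), the endothelial partner of LPL, had 24.8 FPKM in LW63, 48.7 FPKM in LW70 and 15.9 FPKM in LW119, against 25.7 FPKM in LW82, 18.8 FPKM in LW88 and 19.2 FPKM in LW90. LW70 stood far above the other pigs and LW119 was the lowest, so the S-H group spanned the whole range of the S-L group (log2 fold change 0.35, 95% interval -0.49 to 1.18, limma, unadjusted p = 0.376). LPL exceeded GPIHBP1 by 1.81 times in LW70 and by 3.54 to 6.32 times in the other pigs. Of 12 endothelial markers, 1 rose, CLDN5, a tight junction protein, with a log2 fold change of 1.87, and none fell, with a median log2 fold change of 0.21. None of the endothelial markers was at 0, and their summed level was 233 to 268 FPKM in S-H and 158 to 199.96 FPKM in S-L.

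**Figure D4:**
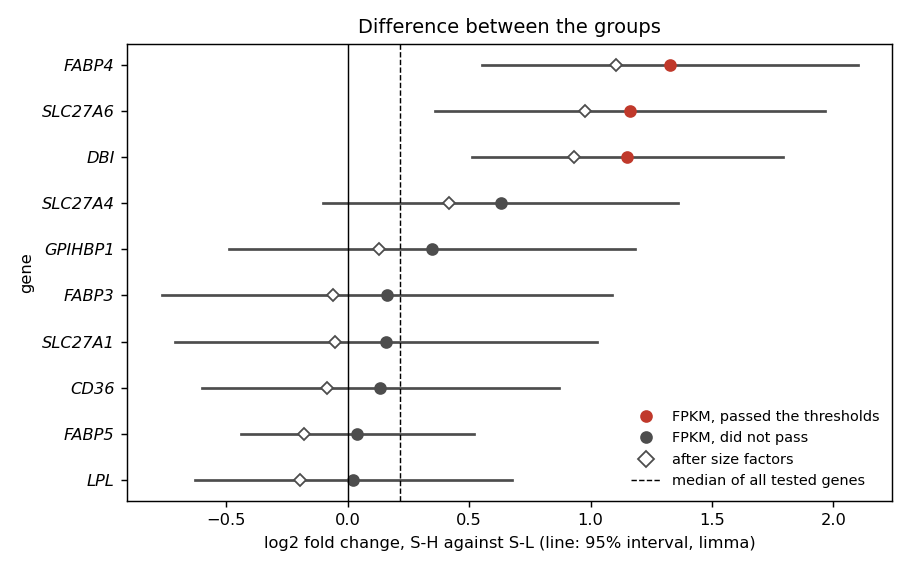
Log2 fold change of each gene between S-H and S-L, with its 95% interval from limma as a line, red where the thresholds were passed, and the value after size factors as an open diamond. FABP4 (1.33), SLC27A6 (1.16) and DBI (1.15) lie furthest to the right of the dashed line at 0.21, the median of all tested genes. SLC27A4 (0.63) and GPIHBP1 (0.35) also lie to its right. After size factors LPL, FABP5, CD36, FABP3 and SLC27A1 lie below 0.

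The values of single transcripts were examined next, since several of these genes have more than 1. The table holds 39 transcripts of the 10 genes, 34 annotated and 5 assembled, of which 27 reached the minimum for testing. Of these, 2 passed the same thresholds, FABP4-201 and TCONS_00102328 of DBI, both higher in S-H. Of the 40336 tested transcripts 1.25% passed, with 0.751% in that direction, and 0.0843% had an adjusted p below 0.05, which no transcript of the 10 genes had. FABP3, FABP4 and GPIHBP1 have a single transcript each. How the reads were divided among overlapping transcripts of a gene was not tested here.

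The leading transcript of CD36 was another one in LW90 than in the other pigs. CD36-206 (chromosome 9, 99687553 to 99782105) had 205 FPKM in LW63, 203 FPKM in LW70, 106 FPKM in LW119, 207 FPKM in LW82 and 118 FPKM in LW88, and was listed at 0 in LW90. CD36-210 (99687553 to 99751486) had 154 FPKM in LW90 and 0.258 FPKM or less in each of the other pigs. The share of CD36-206 in the gene was 65.6% to 69.8% in those 5 pigs, and CD36-210 made up 71.4% in LW90, so that the gene sum of LW90 stayed inside the range of the others. Neither transcript passed the thresholds. The limma fit gave an unadjusted p = 0.234 for CD36-206. It gave an unadjusted p = 0.186 in limma for CD36-210.

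LPL-202 (chromosome 14, 4104775 to 4134048) divided the S-H group. It had 43.0 FPKM in LW63 and 24.1 FPKM in LW119, but 0.0406 FPKM in LW70, 0.0077 FPKM in LW82, 0.0284 FPKM in LW88 and 0.0770 FPKM in LW90. It made up 36.3% of LPL in LW63 and 32.1% in LW119, but it led in no pig. LPL-203 led with 67.1% to 77.2% in the other 4 pigs and with 51.3% in LW63, and had 28.4% in LW119, where LPL-201 led with 39.5%. LPL-202 did not pass (log2 fold change 5.29, 95% interval 0.36 to 10.2, limma, unadjusted p = 0.0389, adjusted p = 0.848).

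The same 2 pigs carried a second transcript of SLC27A6. SLC27A6-203 had 0.689 FPKM in LW63 and 0.353 FPKM in LW119, and 0 is listed for the other 4 pigs. SLC27A6-201 alone had 0.556 FPKM in LW63, 0.733 FPKM in LW70 and 0.647 FPKM in LW119, against 0.569 FPKM in LW82, 0.301 FPKM in LW88 and 0.311 FPKM in LW90, so that the groups overlapped through LW63 and LW82. Its log2 fold change was 0.63 (limma, unadjusted p = 0.171), beside 1.16 for the gene. In SLC27A4 no transcript led throughout, with SLC27A4-204 at 79.1% of the gene in LW119 and SLC27A4-203 at 60.7% in LW70, while FABP5-201 held 94.96% to 96.5% of FABP5 in every pig.

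**Figure D5:**
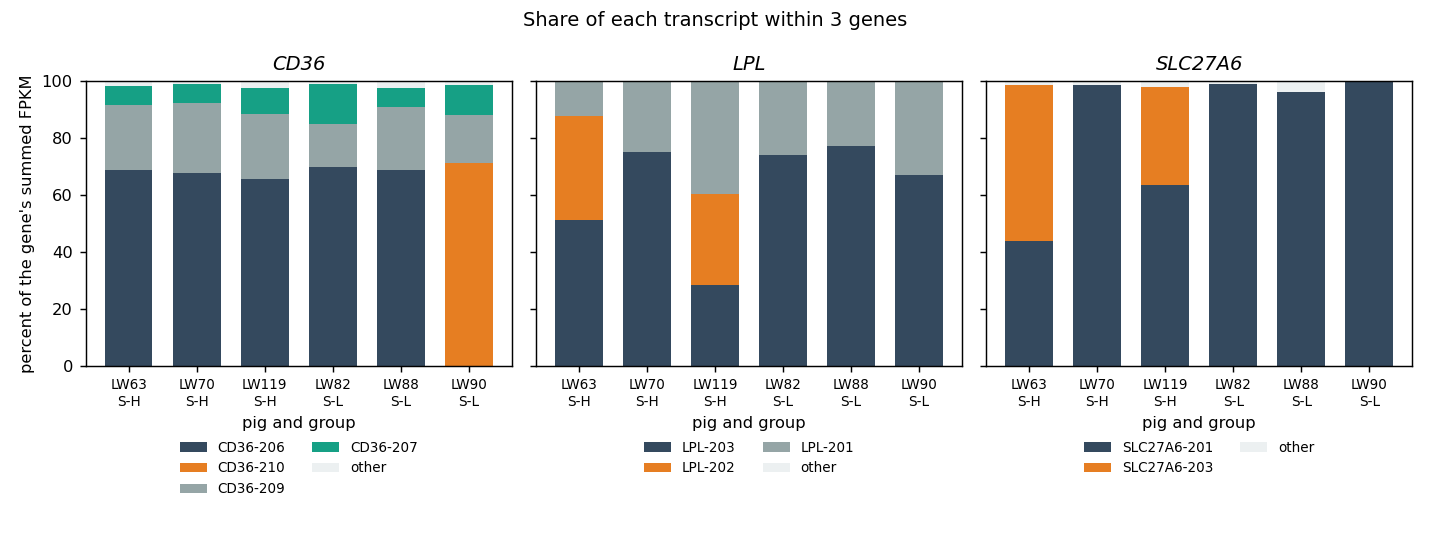
Percent of the summed FPKM of CD36, LPL and SLC27A6 that each transcript made up, by pig. CD36-210 takes 71.4% in LW90 and 0.09% or less elsewhere, LPL-202 takes 36.3% in LW63 and 32.1% in LW119, and SLC27A6-203 takes 54.5% and 34.6% in the same 2 pigs.

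Other genes of fatty acid binding, transport and activation were taken from lists. Of 19 further binding and transport genes, 11 were tested, none rose and 1 fell, with a median log2 fold change of 0.12. ACBD7, a small relative of DBI, was the gene that fell, listed at 0 in all 3 S-H pigs and at 0.469 FPKM in LW82, 0.649 FPKM in LW88 and 0.993 FPKM in LW90 (limma, unadjusted p = 2.46e-05, adjusted p = 0.0789). Its mean was only 0.352 FPKM. With 0 in every S-H pig, the size of its change depends on the pseudocount, and its S-H values have no spread. In 4 more of the 11 tested genes all S-H pigs were above all S-L pigs, as in 13.1% of all tested genes, but none of the 4 passed. They were ACBD6, another relative of DBI, with a log2 fold change of 0.91 (limma, unadjusted p = 0.0169), SLC27A3, a relative of the transport proteins, with 0.71 (limma, unadjusted p = 0.0288), and CAVIN1 and CAV1, which encode coat proteins of caveolae, with log2 fold changes of 0.54 (limma, unadjusted p = 0.0498) and 0.31 (limma, unadjusted p = 0.201). Of 5 acyl-CoA synthetases, which trap fatty acids as acyl-CoA, 4 were tested and none passed (median log2 fold change 0.18). ACSL1, the main form of muscle and fat, had 264 FPKM in LW63, 285 FPKM in LW70 and 68.1 FPKM in LW119, against 147 FPKM in LW82, 201 FPKM in LW88 and 106 FPKM in LW90, so that LW119 was again the lowest.

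Of 17 genes that act on lipoprotein lipase or bind lipoproteins, 11 were tested, 1 rose and none fell, with a median log2 fold change of 0.0010. The gene that rose was APOE, an apolipoprotein made by adipocytes and macrophages among other cells. It had 49.5 FPKM in LW63, 21.2 FPKM in LW70 and 20.4 FPKM in LW119, against 7.89 FPKM in LW82, 7.90 FPKM in LW88 and 4.38 FPKM in LW90, a log2 fold change of 2.08 (standard error 0.38, limma, unadjusted p = 0.000289, adjusted p = 0.262). ANGPTL4, an inhibitor of the lipase, had 11.2 ± 3.15 FPKM in S-H and 8.47 ± 1.33 FPKM in S-L (SD, n = 3 each) and did not pass. VLDLR, a receptor for triglyceride-rich lipoproteins, lay between 31.0 and 39.1 FPKM in all pigs.

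Markers of fibre type were read beside the muscle carrier FABP3. Of 9 slow fibre markers, none passed, all 9 had a positive log2 fold change, as did 74.1% of all tested genes, and the median was 0.51, beside 0.21 for all tested genes, with a summed level of 9708 to 11598 FPKM in S-H and 6492 to 10006 FPKM in S-L. Of 10 fast fibre markers, 7 were tested and all 7 had a negative log2 fold change (median -0.55), with 1 that fell, PVALB, the calcium buffer parvalbumin, and a summed level of 11780 to 17844 FPKM in S-H and 13785 to 30115 FPKM in S-L. The fast myosin genes MYH1, MYH2 and MYH4 could not be matched by symbol. Of 10 macrophage markers none passed (all 10 log2 fold changes positive, median 0.27, summed level 50.5 to 124 FPKM in S-H and 53.9 to 94.4 FPKM in S-L), and of 9 fibroblast and progenitor markers none passed (8 positive, median 0.43, summed level 345 to 695 FPKM in S-H and 360 to 559 FPKM in S-L). No marker of these 4 lists that could be matched was at 0 in all pigs, and the part of these cells and fibres in the results above was not tested.

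The genes most like FABP3, FABP4 and LPL over the 6 pigs were found by the root-mean-square (RMS) difference between centred log2(FPKM + 0.1) profiles, among 9023 other tested genes with a symbol and a mean of at least 1 FPKM. Closest to FABP3 were MAP3K15, a protein kinase (0.051), MDH1, the cytosolic malate dehydrogenase (0.096), and PDHA1, a subunit of pyruvate dehydrogenase (0.12). MDH1 and PDHA1 shared the low pigs of FABP3, which follows from their choice by a like profile. MDH1 had 44.6 FPKM in LW119 and 51.0 FPKM in LW90, against 78.7 to 118 FPKM in the other pigs. Closest to LPL were SETD7, a lysine methyltransferase (0.051), PPP1R3G, a glycogen-targeting subunit of protein phosphatase 1 (0.058), and RASSF9 (0.12). FABP4 had less close neighbours, namely MMP11, a matrix metalloproteinase, and SNRPN (both 0.19) and DDO, the D-aspartate oxidase (0.24). Within the 10 genes, CD36 and SLC27A1 were the most alike pair (RMS difference 0.16), followed by FABP4 and DBI (0.28), and FABP4 and LPL were the least alike (0.77).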

How the data were processed

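RNA of LD muscle from 3 S-H and 3 S-L pigs was measured, with 1 library per pig and no pooling. As the methods of the study state, the authors used Hisat2 for alignment to the pig genome and StringTie for expression levels (versions not given in the sources used here). The values the authors deposited are FPKM of 83119 transcripts, without a stated scaling between libraries. The 21104 annotated transcripts without a gene symbol appeared to be in TPM, which was inferred from the values and is not stated in the sources used here, and were multiplied by 1 factor per pig (0.639 to 0.847) found from the table itself. The values of the 10 genes were not altered by this step, but the size factors and the shares over all tested genes depend on it. Columns of no sample numbered 0.

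Values were summed by gene identifier. Protein-coding genes were taken from RefSeq on Sscrofa11.1, the assembly of the table, by symbol (13901 genes) or by a reciprocal overlap of at least 50% (4666 genes). For genes and transcripts, limma 3.58.1 (R 4.3.3) was run with its trend option, and adjusted p values are Benjamini-Hochberg values over all features tested. Ratios were tested by exact permutation, two-sided (Python 3.11.15, scipy 1.17.1). A log-scale test was used because the file holds FPKM. The gene-wise fit was also run on simulated data, with an outcome that is not reported here. Precision is limited by the 3 pigs in each group. In limma the variance of each gene is also drawn toward that of genes at a similar level. Its standard errors and intervals thus do not show the spread of that gene alone.

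The 10 genes, the 9 lists (105 genes written from general knowledge) and the tests were chosen with earlier results of these data known. Named genes were the 10 genes, list genes that passed, some of the most abundant list genes, and the 3 nearest profiles of FABP4, FABP3 and LPL. Of the transcripts with at least 10% of their gene, not all were named. A few list genes were named after their values were seen. The alternatives were other pseudocounts, minimums, scalings and variance models, carcass weight as a covariate, other gene values and gene sets, adjusted p values and each pig left out.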

Additional observations from a re-analysis of the deposited data

How the results depend on the processing

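The group difference in the FABP4 to FABP3 ratio moved by less than 1 SD in all 10 alternatives, with 1.01 to 1.36 when each pig was left out. The choice of transcripts could not move it, as FABP3 and FABP4 have a single transcript each. Other pseudocounts left it at 1.16 to 1.17, since both genes are abundant. FABP4, DBI and SLC27A6 stayed higher in S-H in every alternative that gave a value. Their calls were less firm: the count of the 10 genes that passed fell from 3 to 0 with size factors, with carcass weight as a covariate and with adjusted p values, to 1 with annotated transcripts only (DBI has none left and SLC27A6 missed the threshold), and ranged from 0 to 3 with each pig left out, with 0 without LW63 or LW90 and 1 without LW88. The count of all genes was 77 with a pseudocount of 1, 260 with TPM, 110 with carcass weight, 0 with adjusted p values, and 86 (without LW90) to 261 (without LW82) with each pig left out. The 2 transcripts that passed became 1 without a minimum and with one of 1 FPKM, 0 with size factors and 0 to 2 with each pig left out (0 without LW63, LW82 or LW90, and 1 without LW88).

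Genes that did not pass changed sign. With size factors the log2 fold change was -0.060 for FABP3, -0.18 for FABP5, -0.086 for CD36, -0.055 for SLC27A1 and -0.20 for LPL. With the transcript of highest mean it was -0.12 for SLC27A4 and -0.58 for LPL, and 3.61 for CD36, whose leading transcript is listed at 0 in LW90. With carcass weight it was -0.045 for LPL. With each pig left out it ranged from -0.13 to 0.59 for FABP3, -0.029 to 0.11 for FABP5, -0.053 to 0.43 for CD36, -0.17 to 0.47 for SLC27A1, -0.20 to 0.24 for LPL and -0.082 to 0.72 for GPIHBP1, and the FABP5 to FABP3 ratio from -0.49 to 0.14. The FABP4 to adipocyte marker ratio was 0.066 with a pseudocount of 1, and ranged from -0.62 to -0.17 with each pig left out. Except where stated, the cause was not tested. No paired analysis was possible because S-H and S-L hold separate animals that the labels do not pair. Depth could not be examined from FPKM, and the read totals that the paper reports for each library were not used.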

Other observations

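Between FABP4 and FABP5 on chromosome 4 lie 5 annotated genes, 2 of them members of the same family. FABP9, known from testis (55116340 to 55119825), was outside the tested set because the reference gave it no gene type, and it had 3.35 FPKM in LW63, 4.21 FPKM in LW70 and 1.15 FPKM in LW119, against 1.83 FPKM in LW82, 4.14 FPKM in LW88 and 1.32 FPKM in LW90. PMP2, the myelin form (55118864 to 55142036), had 1.34 FPKM in LW63, 0.587 FPKM in LW70 and 0.208 FPKM in LW119, against 0.885 FPKM in LW82, 0.395 FPKM in LW88 and 0.886 FPKM in LW90. In both genes the groups overlapped, and the annotated spans of FABP9 and PMP2 overlap each other. Among the 4 FABP genes of this stretch, FABP4 was the 1 gene whose groups did not overlap. Of all tested genes, 13.1% had groups without overlap in this direction and 14.8% in either direction.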
